A study of Mus musculus with 6 samples.

Results

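The genes described are Cd1d1, which encodes the mouse CD1d molecule that presents lipids to natural killer T (NKT) cells, and 9 genes whose products degrade, bind or move glycolipids and cholesterol. They are Arsa, Galc, Gla, Glb1, Psap, Gm2a, Gltp, Npc1 and Npc2. They were chosen by symbol, and all 10 were found among the 22800 genes of the deposited table. RNA of cells in bronchoalveolar lavage fluid, the saline wash of airways and alveoli, was sequenced from mice given vehicle (replicates 2, 3 and 4) or an intraperitoneal dose of 20 µg of sulfatide (replicates 1, 2 and 3). Strain, age, sex and the time after injection are not given in the labels. The series title names lung ischemia and reperfusion, but the labels do not say whether these mice underwent it. Nor do the labels say whether each library is a separate animal. The p-values therefore rest on the spread among these libraries alone, which could be technical.

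Sulfatide is galactosylceramide carrying a sulfate group, and it is abundant in myelin. CD1d molecules that display it are recognised by type II NKT cells. Lipids are placed on CD1d in the endoplasmic reticulum and exchanged in late endosomes and lysosomes, where saposins, small proteins cut from prosaposin, lift lipids out of membranes. In the lysosome arylsulfatase A removes the sulfate of sulfatide with the help of saposin B, and galactosylceramidase then removes the galactose. Macrophages take up and digest much of the glycolipid of dying cells. Per the series title, the comparison addresses what NKT cells that react to sulfatide do to alveolar macrophages.

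Lysosomal genes are known targets of the transcription factor TFEB and its relatives, which bind a palindrome built around the E-box CACGTG. A window of 250 bases before the gene start was listed in RefSeq (GRCm38.p6) for 8 of the 10 genes. Cd1d1 and Npc1 had no entry. CACGTG, which reads the same on both strands, was found for Arsa, Gla and Glb1, against 6.02% of all 32851 windows of the same length. The longer TCACGTGA, also its own reverse complement and holding CACGTG within it, occurred 2 times before Gla, before none of the other genes with a window, and in 0.785% of all windows. A match is a description of letters and shows no binding. The windows of the 3 genes with CACGTG are shown with those letters in capitals, followed by that of Npc2, which holds none and is the gene whose level changed in the comparison. Each stops where the first annotated transcript of RefSeq or GENCODE M21 begins.
Gla, chrX:134601126-134601255, minus strand: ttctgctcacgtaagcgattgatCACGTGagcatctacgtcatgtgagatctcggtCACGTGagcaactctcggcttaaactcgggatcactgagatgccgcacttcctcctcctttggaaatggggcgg
Arsa, chr15:89477426-89477674, minus strand: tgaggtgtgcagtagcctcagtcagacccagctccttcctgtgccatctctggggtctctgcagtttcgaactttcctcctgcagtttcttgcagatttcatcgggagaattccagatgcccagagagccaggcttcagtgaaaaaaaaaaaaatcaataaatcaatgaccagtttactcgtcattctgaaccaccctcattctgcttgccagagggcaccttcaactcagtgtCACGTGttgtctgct
Glb1, chr9:114400828-114401075, plus strand: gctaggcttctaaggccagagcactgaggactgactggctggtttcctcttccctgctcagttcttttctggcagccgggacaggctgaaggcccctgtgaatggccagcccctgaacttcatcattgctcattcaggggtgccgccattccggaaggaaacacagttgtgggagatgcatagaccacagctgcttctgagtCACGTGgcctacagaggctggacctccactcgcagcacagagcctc
Npc2, chr12:84773153-84773362, minus strand: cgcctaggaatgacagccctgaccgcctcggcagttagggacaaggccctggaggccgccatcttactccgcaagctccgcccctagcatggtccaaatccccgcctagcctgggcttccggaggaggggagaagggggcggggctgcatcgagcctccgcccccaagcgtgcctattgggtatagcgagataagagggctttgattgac

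Levels are given in FPKM, fragment numbers divided by transcript length and by the fragment total of the library, so they can be compared between genes. All 10 genes passed the filter for testing (at least 1 FPKM in at least 3 libraries), as did 10405 genes in all. Groups were compared with limma on log2(FPKM + 1), and a gene was called at a p below 0.05 after Benjamini-Hochberg adjustment over all genes tested. Log2 fold changes were computed on that scale as sulfatide minus vehicle and carry their standard error. They understate changes of genes with low levels. The table holds no counts, so the absolute depth is unknown and counting error cannot be given. FPKM summed to 1126779 to 1168474 in the vehicle libraries and to 1217971 to 1249691 in the sulfatide libraries.

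Of the 10 genes the sterol carrier Npc2 fell, and the other 9 did not pass the test. By limma 1 of the 10 genes was called in either direction, against 18.7% of all tested genes. It fell, as did 10.4% of all tested genes, and 0 rose, against 8.31%. At an unadjusted p below 0.05, 2 were lower (Cd1d1 and Npc2) and 1 was higher (Gla), 30% of the 10 against 33.8% of all tested genes. The median log2 fold change was -0.02 over the 10 genes and 0.04 over all tested genes, and the median size of the change regardless of sign was 0.12 and 0.19. Groups did not overlap for 2 genes, Gla and Npc2, against 37.0% of all tested genes. The shares called and not overlapping were thus no higher than in the whole table.

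**Figure D1:**
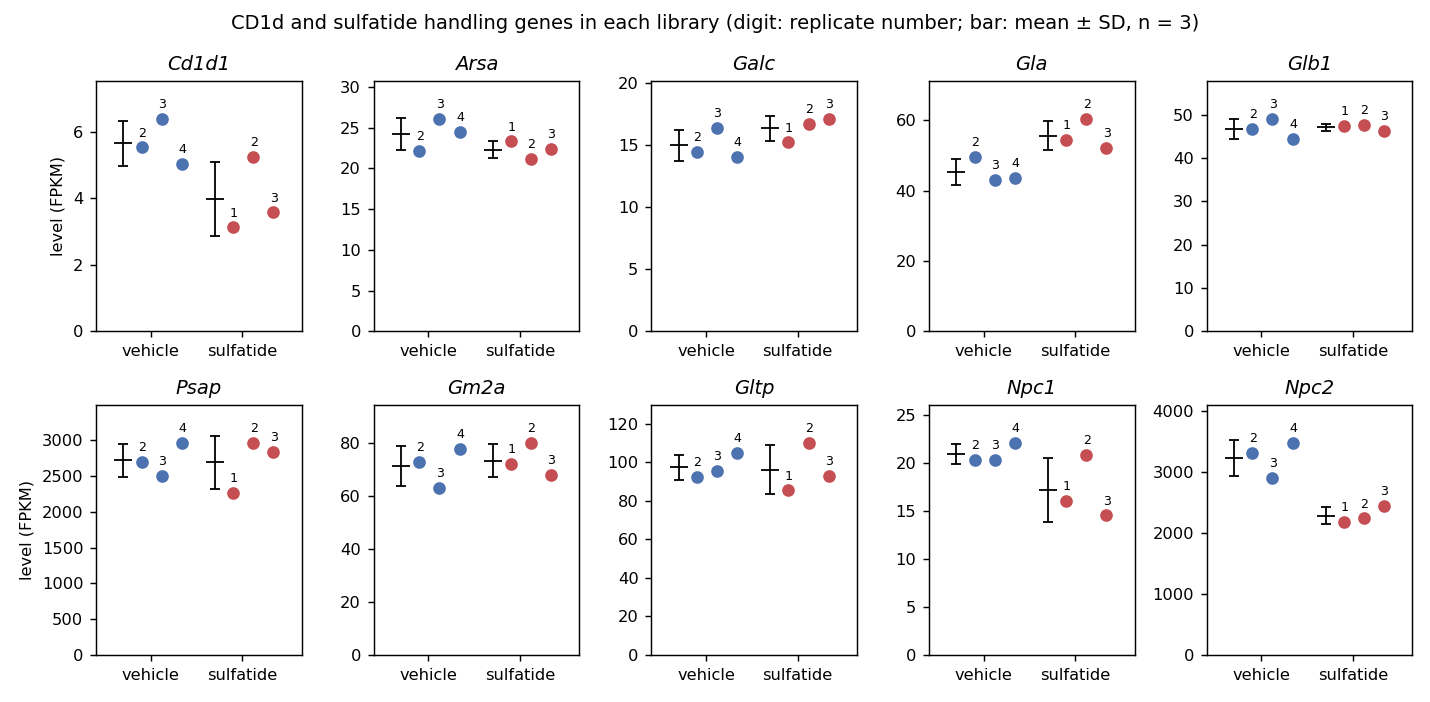
Level in FPKM (linear axes from 0) of each of the 10 genes in the 3 vehicle libraries (blue) and the 3 sulfatide libraries (red), with the replicate number above each point and the mean ± SD beside them. Npc2 is lower and Gla higher in every sulfatide library than in every vehicle library, and the sulfatide points of Cd1d1 and Npc1 spread widely, with replicate 2 highest.

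The levels of the 10 genes covered a wide range. Npc2 and Psap were among the most abundant transcripts of these cells, at ranks 36 and 39 of 10405 by mean level over all 6 libraries (2756 and 2704 FPKM). Gltp followed at 96.9, Gm2a at 72.4, Gla at 50.5 and Glb1 at 46.9 FPKM. Arsa was at 23.3, Npc1 at 19.0 and Galc at 15.7 FPKM, and Cd1d1 was lowest at 4.82 FPKM. Between neighbours in this order the ranges over the 6 libraries overlapped for Npc2 and Psap, Gla and Glb1, Arsa and Npc1, and Npc1 and Galc. They did not overlap for the other neighbours.

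Cd1d1, the presenting molecule itself, was at 5.54, 6.39 and 5.05 FPKM in vehicle replicates 2, 3 and 4, whereas it was at 3.13, 5.25 and 3.58 in sulfatide replicates 1, 2 and 3. Sulfatide replicates 1 and 3 lay below all vehicle libraries, while sulfatide replicate 2 lay within the vehicle range. The log2 fold change was -0.44 ± 0.17 (95% interval -0.81 to -0.06 before adjustment), which did not pass (adjusted p = 0.102, limma). Without sulfatide replicate 2 it was -0.61 and passed (adjusted p = 0.0233), but not without any of the other 5 libraries in turn (0.141 to 0.306). It also passed with libraries weighted by their scatter around the group means in these same data (-0.48, adjusted p = 0.0195). Sulfatide replicate 2 also stood apart in Marco, a scavenger receptor of alveolar macrophages, at 183 FPKM against 60.0 to 104 in the other 5 libraries. Other genes of a list of 10 resident alveolar macrophage genes went different ways in that library. Chil3 was highest there (45.6 FPKM), whereas Pparg (0.50) and Car4 (0.14) were lowest. Siglecf, Ear2 and Itgax lay within the range of the other libraries. Summed FPKM of the list, most of it Marco, was 110 to 145 in the vehicle libraries, and 88.5, 235 and 102 in sulfatide replicates 1, 2 and 3. In that list Fabp1, Krt79 and Cidec were listed at 0 in all libraries, and its part in the Cd1d1 level was not tested. In bulk samples fewer cells of a type and less RNA per cell cannot be told apart.

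Cd1d1 lies on chromosome 3 (GRCm38, 86995834 to 86999441, minus strand), beside its inverted copy Cd1d2 (86986551 to 86989780, plus strand), which GENCODE M21 lists as a polymorphic pseudogene. Over 1233 aligned bases their longest transcripts were 96.6% identical. Cd1d2 was not analysed here, so its own level is not known. Because the way fragments were assigned to near-identical copies is not given in the sources used here, the Cd1d1 level may hold fragments of both, in shares that were not tested.

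The called genes among those that act with CD1d moved in different directions. B2m, the light chain that pairs with CD1d and with MHC class I, fell 1.29-fold, from 7211 ± 908 to 5583 ± 212 FPKM (SD, n = 3 each, adjusted p = 0.0461, limma). It passed without vehicle replicate 3 (0.0111) and not without any of the other 5 libraries in turn (0.0764 to 0.195), after quantile normalization (0.0655) or with no filter on low values (0.138). B2m exceeded Cd1d1 by 986-fold to 1707-fold within each library. Mttp, which helps place lipids on CD1d in the endoplasmic reticulum, was at 0.24 to 0.40 FPKM in the 6 libraries, below the level for testing. Ap3s1, a subunit of the AP-3 adaptor that sorts CD1d to lysosomes, rose 1.47-fold, from 176 ± 12.8 to 259 ± 3.96 FPKM (adjusted p = 0.00178), and passed without each library in turn. The other AP-3 subunits of the list were not called and leaned lower. Log2 fold changes were -0.19 for Ap3b1, -0.18 for Ap3d1, -0.13 for Ap3m1 and -0.06 for Ap3s2. Ctsl, a lysosomal protease, rose 1.38-fold (1475 ± 159 to 2036 ± 201 FPKM, adjusted p = 0.0205), but did not pass without sulfatide replicate 2 (0.0542) or 3 (0.0789), after rescaling every library to the same sum (0.0645) or quantile normalization (0.115), or with no filter (0.0557). Of 14 tested genes of this list, Cd1d1 included, 2 rose and 1 fell, against 8.31% and 10.4% of all tested genes. The median log2 fold change was -0.04.

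The hydrolases that take sulfatide and related glycolipids apart did not pass the test. Arsa, which encodes arylsulfatase A, was at 22.1, 26.0 and 24.5 FPKM in vehicle replicates 2, 3 and 4 and at 23.3, 21.2 and 22.4 in sulfatide replicates 1, 2 and 3. The groups overlapped, and the log2 fold change was -0.11 ± 0.10 (95% interval -0.34 to 0.11, adjusted p = 0.453, limma). Galc, galactosylceramidase, the next step of sulfatide breakdown, was at 14.4, 16.4 and 14.1 FPKM in vehicle and 15.2, 16.7 and 17.1 in sulfatide. Here too the groups overlapped (log2 fold change 0.12 ± 0.10, 95% interval -0.11 to 0.36, adjusted p = 0.446). The intervals leave out a doubling or a halving of the FPKM of either enzyme on this scale. Within libraries Galc stood at 0.574 to 0.653 of Arsa in vehicle and 0.653 to 0.790 in sulfatide (exact permutation test, two-sided p = 0.2). No 3 against 3 comparison can go below 0.1 in that test.

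Gla, alpha-galactosidase A, which removes terminal galactose from globotriaosylceramide, had the largest positive difference of the 10 genes. Its level was 49.5, 43.0 and 43.6 FPKM in vehicle replicates 2, 3 and 4 and was at 54.6, 60.4 and 52.1 in sulfatide replicates 1, 2 and 3. Every sulfatide library was above every vehicle library, but the difference did not pass (log2 fold change 0.29 ± 0.10, 95% interval before adjustment 0.07 to 0.51, adjusted p = 0.0675, limma). Under the 15 other settings the log2 fold change of Gla ran from 0.18 to 0.35 and passed in none. The lowest value, 0.18, came after rescaling every library to the same sum (adjusted p = 0.234, limma). Glb1, the lysosomal beta-galactosidase, was at 46.6, 49.0 and 44.4 FPKM in vehicle and 47.5, 47.7 and 46.2 in sulfatide. It varied least among the 10 genes in the sulfatide libraries, with an SD of 1.76% of the mean, and its log2 fold change was 0.02 ± 0.08 (95% interval -0.17 to 0.20, adjusted p = 0.918). The ratio of Gla to Glb1, which no scaling between libraries can change, was 1.06, 0.877 and 0.982 in vehicle and 1.15, 1.27 and 1.13 in sulfatide. These ratios did not overlap (exact permutation p = 0.1, the smallest this design allows), and the ratio was chosen after the values were seen.

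The activator proteins, which hand lipids to these enzymes, were likewise without a called change. Psap, the precursor of saposins A to D, was at 2690.45, 2506 and 2962 FPKM in vehicle replicates 2, 3 and 4 and at 2266, 2959 and 2840 in sulfatide replicates 1, 2 and 3. The vehicle range lay within that of the sulfatide libraries but for vehicle replicate 4, and the log2 fold change was -0.02 ± 0.12 (95% interval -0.29 to 0.24, adjusted p = 0.912, limma). Psap exceeded Arsa by 96.2-fold to 140-fold within libraries. Gm2a, which lifts ganglioside GM2 to beta-hexosaminidase A, was at 72.9, 63.2 and 77.9 FPKM in vehicle and 72.3, 80.1 and 67.9 in sulfatide, with overlapping groups (0.04 ± 0.11, 95% interval -0.20 to 0.28, adjusted p = 0.804). The enzyme subunit gene Hexa stood at 7.47 to 10.0 times the level of Gm2a.

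Of 18 tested genes of lysosomal sphingolipid breakdown, the members among them included, 2 rose and 0 fell by limma. Of all tested genes 8.31% rose and 10.4% fell. At an unadjusted p below 0.05, 4 of the 18 were higher and 0 lower, where 33.8% of all tested genes passed in either direction. The median log2 fold change of the 18 was 0.09, and -0.02 after rescaling to the same sum. Ctsa, the protective protein of beta-galactosidase and neuraminidase, rose 1.19-fold, from 521 ± 10.4 to 622 ± 5.50 FPKM (adjusted p = 0.0379). It did not pass after rescaling (0.165) or without any library other than vehicle replicate 3 (0.0644 to 0.120). Gba2, a glucosylceramidase that works outside the lysosome, rose 1.51-fold, from 8.58 ± 1.25 to 13.0 ± 1.84 FPKM (adjusted p = 0.0297). Its call was lost without vehicle replicate 2 or sulfatide replicates 1 or 3 (0.0979 to 0.121), after rescaling (0.0543) and with no filter (0.0687).

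Npc2, a soluble lysosomal protein that binds cholesterol and passes it to Npc1, was the member that fell. Its level was 3306, 2902 and 3475 FPKM in vehicle replicates 2, 3 and 4 and was at 2180, 2238 and 2436 in sulfatide replicates 1, 2 and 3. Every sulfatide library was below every vehicle library, and the mean was 1.41-fold lower (log2 fold change -0.50 ± 0.10, 95% interval -0.71 to -0.28, adjusted p = 0.00789, limma). Of all tested genes 7.26% had a smaller p. Without vehicle replicate 2 the change was -0.48 and missed the threshold (adjusted p = 0.0508). It also missed when the replicate number was taken as a block, although the labels do not say that these numbers pair libraries. Npc2 stood above Psap in the 3 vehicle libraries, at 1.23, 1.16 and 1.17 times its level, and below it in the 3 sulfatide libraries, at 0.962, 0.756 and 0.858 times (exact permutation p = 0.1, the smallest possible). That ratio was chosen after the values were seen, and whether it lies above or below 1 depends on the transcript lengths used.

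Npc1, the membrane protein that receives cholesterol from Npc2, was at 20.3, 20.3 and 22.1 FPKM in vehicle replicates 2, 3 and 4 and at 16.0, 20.8 and 14.5 in sulfatide replicates 1, 2 and 3. As for Cd1d1, sulfatide replicates 1 and 3 lay below all vehicle libraries and sulfatide replicate 2 among them. The log2 fold change of -0.29 ± 0.13 did not pass (95% interval -0.59 to 0.02, adjusted p = 0.167, limma). It was -0.43 without sulfatide replicate 2 (adjusted p = 0.0305) and -0.38 with weighted libraries (0.0271), and both passed. Without any of the other 5 libraries in turn Npc1 did not pass (0.172 to 0.442). The high Marco level of that library stands beside this result too, and its part was not tested. Npc2 exceeded Npc1 by 107-fold to 168-fold within libraries. Gltp, a cytosolic protein that moves glycolipids between membranes, was at 92.4, 95.4 and 104.8 FPKM in vehicle and 85.5, 110 and 93.2 in sulfatide. Its groups overlapped (-0.02 ± 0.11, 95% interval -0.27 to 0.22, adjusted p = 0.895).

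**Figure D2:**
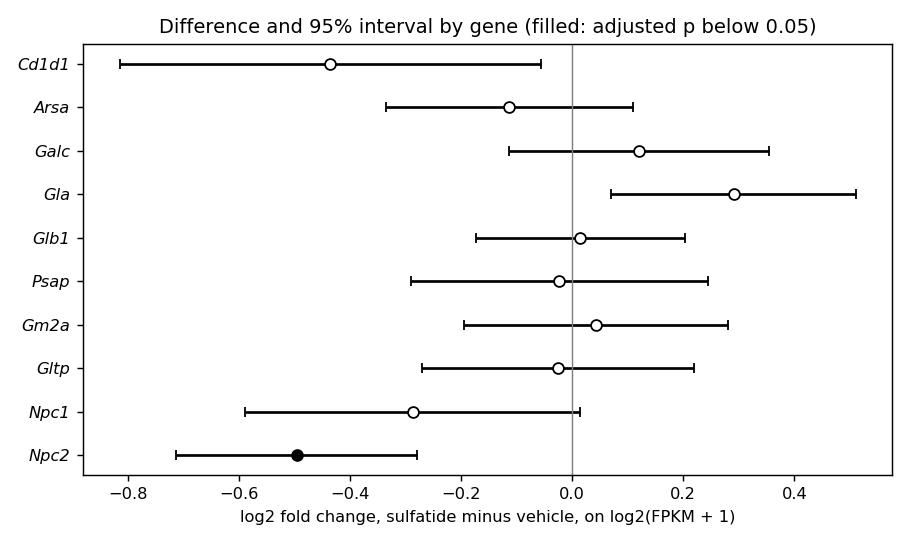
Log2 fold change of each of the 10 genes (points, sulfatide minus vehicle on log2(FPKM + 1)) with its 95% interval before adjustment, filled where the adjusted p was below 0.05. Npc2 at -0.50 is the filled point, and the intervals of Cd1d1 (-0.81 to -0.06) and Gla (0.07 to 0.51) exclude 0 without passing adjustment.

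Among the other genes of glycolipid and cholesterol transfer, Stard3, a sterol carrier of late endosome membranes, fell 1.89-fold, from 131 ± 16.3 to 69.4 ± 2.94 FPKM (log2 fold change -0.90 ± 0.10, adjusted p = 0.000539, limma). The fall passed without each library in turn. Of 13 tested genes of the list, members included, 2 fell (Npc2 and Stard3) and 0 rose, against 10.4% and 8.31% of all tested genes. The counts were the same at an unadjusted p below 0.05, where 33.8% of all tested genes passed in either direction. The median log2 fold change was -0.05. The ceramide phosphate carrier Cptp was at a log2 fold change of 0.21 ± 0.11 (adjusted p = 0.232) and the ceramide carrier Cert1 at 0.03 ± 0.10 (adjusted p = 0.863).

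The genes specific to making sulfatide were at or near 0 in these cells. Ugt8a, which makes galactosylceramide, and Fa2h, which hydroxylates its fatty acid, were listed at 0 in all 6 libraries. Gal3st1, the sulfotransferase that completes sulfatide, was listed at 0 in 5 libraries and at 0.07 FPKM in sulfatide replicate 3. Genes of general sphingolipid synthesis were present. Of 16 tested genes on the list 2 rose and 4 fell, against 8.31% and 10.4% of all tested genes (median log2 fold change -0.07). Cers6, a ceramide synthase, fell 1.57-fold, from 67.3 ± 3.12 to 42.9 ± 5.59 FPKM (adjusted p = 0.00401, limma), and passed without each library in turn. The falls of the dihydroceramide desaturase Degs1 (1.35-fold, adjusted p = 0.0471) and the sphingomyelin synthase Sgms1 (1.31-fold, 0.0416) passed without sulfatide replicate 2 and were lost without each of the other 5 libraries (0.0531 to 0.168 and 0.0575 to 0.159). Both were also lost with no filter (0.0930 and 0.0670), and Sgms1 after quantile normalization (0.0504).

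Of the ganglioside enzymes, the GM3 synthase St3gal5 fell 1.30-fold (43.3 ± 3.63 to 33.3 ± 1.30 FPKM, adjusted p = 0.0283, limma) and the GM2 synthase B4galnt1 rose 1.25-fold (52.6 ± 4.74 to 65.5 ± 3.71 FPKM, 0.0493). St3gal5 passed without vehicle replicate 3 and not without each other library (0.0603 to 0.126). B4galnt1 passed without vehicle replicate 4 and not without each other library (0.0693 to 0.188), after rescaling (0.172) or quantile normalization (0.0531), with no filter (0.0684) or with a pseudocount of 0.1 (0.0502). Kdsr, a reductase of early sphingolipid synthesis, rose 1.47-fold (7.30 ± 1.60 to 10.7 ± 0.471 FPKM, adjusted p = 0.0437). It was lost without vehicle replicate 2 or any sulfatide library (0.0647 to 0.133), after rescaling (0.0853) and with no filter (0.0952).

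Among transcription factors and sensors that govern lysosomal genes, Mitf and Tfec, the relatives of TFEB, fell. Mitf fell 1.98-fold, from 15.3 ± 3.34 to 7.73 ± 1.15 FPKM (adjusted p = 0.00752, limma) and passed without each library in turn. Tfec fell 1.53-fold, from 125 ± 18.8 to 81.9 ± 10.9 FPKM (adjusted p = 0.0162), and missed the threshold without vehicle replicate 2 (0.0801) or sulfatide replicates 1 (0.0528) or 3 (0.0550). Tfeb itself had a log2 fold change of -0.22 ± 0.12 (adjusted p = 0.240) and Tfe3 of -0.28 ± 0.11 (adjusted p = 0.118). Of 11 tested genes of this list 2 fell and 0 rose, against 10.4% and 8.31% of all tested genes, with a median of -0.16. At an unadjusted p below 0.05, 3 were lower and 0 higher, where 33.8% of all tested genes passed in either direction. Over the 5 lists, leaving out the 10 genes, 6 of 62 tested genes rose (9.68%) and 8 fell (12.9%), against 8.31% and 10.4% of all tested genes, so the shares called were near those of the whole table. Without an intensity trend in the variance, 5 of these 14 missed the threshold, namely B2m (0.0621), Ctsa (0.0735), B4galnt1 (0.0701), Degs1 (0.0668) and Sgms1 (0.0503).

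**Figure D3:**
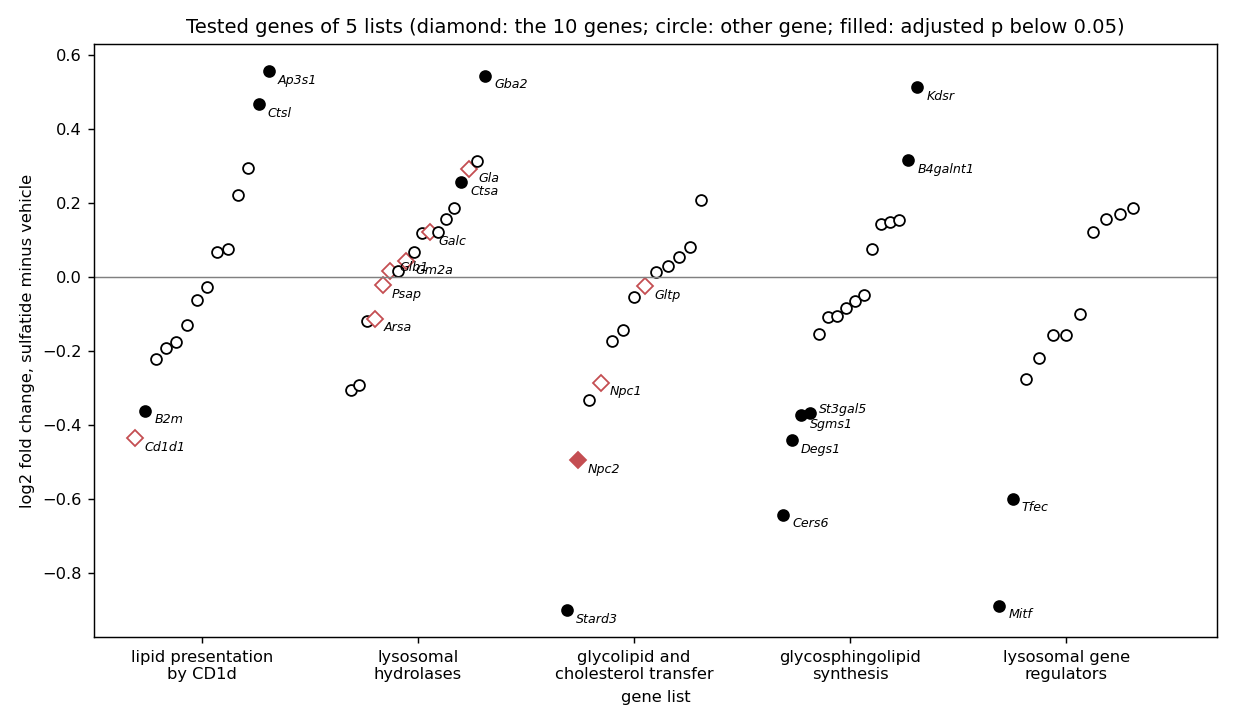
Log2 fold change (sulfatide minus vehicle, on log2(FPKM + 1)) of the tested genes of 5 lists, ordered by value within each list, with the 10 genes as diamonds, others as circles, and filled symbols at an adjusted p below 0.05. Stard3 at -0.90 and Mitf at -0.89 lie lowest, Ap3s1 at 0.56 lies highest, and 9 of the 10 diamonds are open.

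The 7 macrophage genes had the highest sum of the marker lists in each library, at 26963 to 38140 FPKM, most of it Lyz2 (25051 to 35891 FPKM). Adgre1, Cd68, Csf1r and Fcgr1 lay between 258 and 915 FPKM in all libraries, Mrc1 at 7.68 to 33.6 and Mertk at 2.13 to 4.22. The 15 genes of the NKT and T cell list summed to 6.92 to 10.9 FPKM in vehicle and 4.37 to 6.16 in sulfatide, most of it Cd247, and 9 were listed at 0 in all libraries, among them Cd3e, Zbtb16 and Trbc1. The 6 B cell genes reported summed to 0.35 to 1.36 FPKM in vehicle and 1.26 to 1.40 in sulfatide, with Ms4a1 and Pax5 at 0. The 9 dendritic cell genes summed to 5.09 to 6.20 and 3.79 to 5.48 FPKM, with Xcr1 at 0. Of its 3 tested genes Cd209a was listed at 0 in all vehicle libraries and at 1.19 to 2.59 FPKM in sulfatide. Ccr7 was at 1.63 to 2.31 FPKM in vehicle and 0.41 to 0.81 in sulfatide. Each passed the filter for testing only through the group where it was higher, so no p is given for either. Batf3, which was above 1 FPKM in all 6 libraries, fell 1.91-fold (adjusted p = 0.0440, limma), but did not pass with no filter on low values (0.0888). The 9 lung epithelial genes summed to 0.45 FPKM at most. The 10 neutrophil genes summed to 158 to 211 FPKM in vehicle and 432 to 583 in sulfatide, while Ly6g and Cxcr2 did not exceed 0.18 FPKM. Of its 5 tested genes S100a8, a calcium-binding protein gene of myeloid cells, rose 3.99-fold, from 105 ± 11.7 to 419 ± 55.3 FPKM (SD, n = 3 each, adjusted p = 3.33e-05, limma), and the other 4 did not pass. Mean levels in vehicle and sulfatide were 21.9 and 21.2 FPKM for S100a9, 5.12 and 3.46 for Camp (adjusted p = 0.0519), 2.41 and 1.89 for Ngp and 51.2 and 64.0 for Csf3r (adjusted p = 0.144). The higher sum of the list in sulfatide was thus mostly that of S100a8. Mrc1, the called gene of the macrophage list, rose 2.66-fold, from 11.1 ± 3.09 to 29.7 ± 4.03 FPKM (adjusted p = 0.00143, limma). Itgax, the called gene of the resident alveolar macrophage list, fell 1.95-fold, from 4.49 ± 1.15 to 2.30 ± 0.217 FPKM (adjusted p = 0.0159). Siglecf of the same list went the other way below the level for testing. It was at 0.26, 0.08 and 0.13 FPKM in vehicle replicates 2, 3 and 4 and at 0.90, 0.80 and 0.67 in sulfatide replicates 1, 2 and 3. Mrc1, Itgax, Siglecf, S100a8, Cd209a, Ccr7 and Batf3 moved with the group, as did Npc2, and their part in its level was not tested.

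Some of the 10 genes share bases with other genes on GRCm38 in GENCODE M21. Exons of Arsa (chromosome 15, 89472476 to 89477425) overlap the antisense gene C230037L18Rik over 690 of 3680 bases, and those of Npc1 (chromosome 18, 12189692 to 12236400) overlap Rmc1 on the opposite strand over 511 of 11317. Galc (chromosome 12, 98202294 to 98259459) overlaps the antisense gene Gm47439 over 400 of 14879 bases, and Glb1 (chromosome 9, 114401076 to 114474898) shares 165 of 3008 with Tmppe on its own strand. Whether counting used the strand is not given in the sources used here, so fragments from these stretches may be shared. Npc2 (chromosome 12, 84754562 to 84773152), Psap (chromosome 10, 60277627 to 60302597), Gla (chromosome X, 134588149 to 134601125), Gm2a (chromosome 11, 55098115 to 55113029) and Gltp (chromosome 5, 114669398 to 114690984) overlap no other annotated gene.

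**Figure D4:**
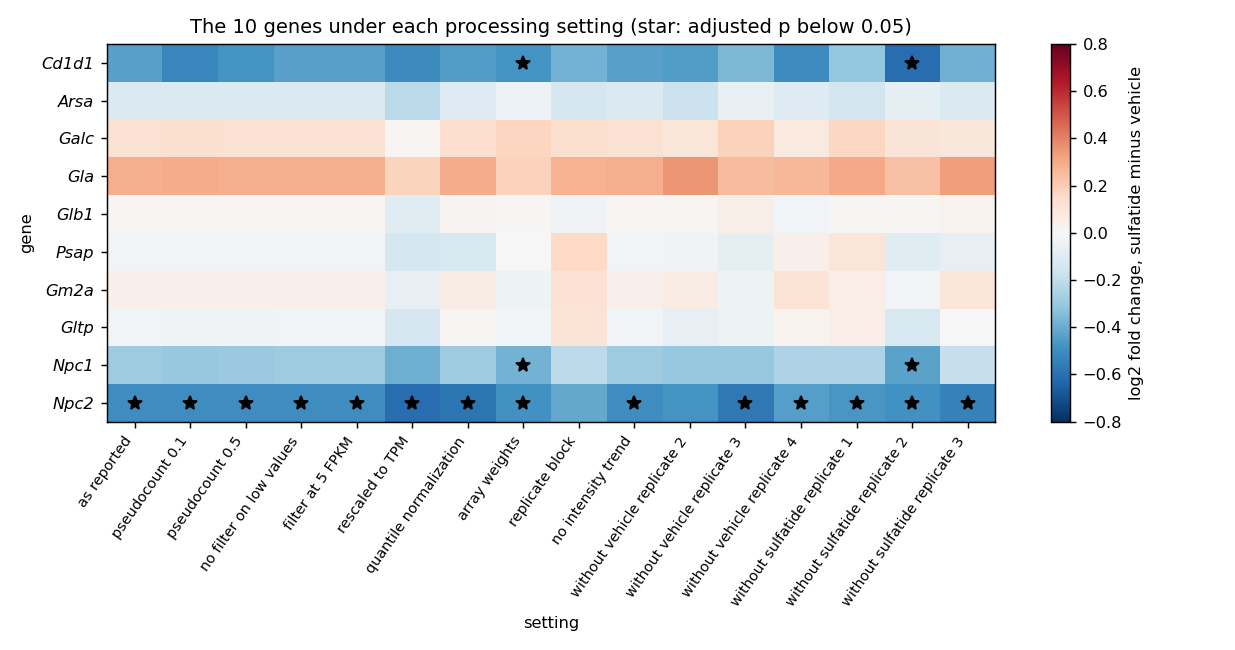
Log2 fold change (colour, sulfatide minus vehicle) of the 10 genes as reported and under 15 other settings, with a star where the adjusted p was below 0.05. Npc2 carries a star in all columns but those without vehicle replicate 2 and with the replicate block, and Cd1d1 and Npc1 carry stars with array weights and without sulfatide replicate 2.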

How the data were processed

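The authors deposited FPKM values rounded to 2 decimals for 22800 gene symbols, made on mm10 according to the submitters' processing notes. Libraries were poly(A)-selected, strand-specific (dUTP) and paired-end, per the labels' protocols. No source used here gives the aligner, counting program or annotation. Groups and replicate numbers came from sample titles. A further 3 value columns matched no sample and were not used. The 10405 genes at 1 FPKM or more in at least 3 libraries were analysed as log2(FPKM + 1) with limma 3.58.1 in R 4.3.3 (lmFit, eBayes with an intensity trend, two-sided, Benjamini-Hochberg adjustment over all genes). No count model was used, since FPKM are not counts. The fit was tested on simulated data with noise drawn independently for each gene and library, so variation shared between genes or libraries was not covered. The 10 genes and all lists were chosen with earlier results of these data known. Named were the 10 genes, B2m, Mttp and every called gene of 5 pathway lists. Cptp, Cert1, Hexa, Tfeb, Tfe3, the other AP-3 subunits, the sulfatide synthesis genes and the marker genes were added after their values were seen. From the B cell list 1 gene is not reported here. Gene positions came from GENCODE M21 (GRCm38, the assembly called mm10) and windows before gene starts from RefSeq GRCm38.p6. Alternatives were no filter or a minimum of 5 FPKM, a pseudocount of 0.1 or 0.5, TPM (every library rescaled to the same sum), quantile normalization, array weights, no intensity trend, the replicate number as a block, and leaving out each library.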

Additional observations from a re-analysis of the deposited data

How the results depend on the processing

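Of 150 values (10 genes under 15 alternatives), 130 kept their direction and side of the threshold. Cd1d1 and Npc1 passed with array weights and without sulfatide replicate 2, and Npc2 missed without vehicle replicate 2 and in the fit that takes the replicate number as a block. There were 14 changes of sign, none of them of a called value and all for genes with a difference near 0. Log2 fold changes were -0.094 for Glb1 and -0.067 for Gm2a under TPM, 0.012 for Gltp after quantile normalization, -0.038 for Gm2a under array weights, and 0.16 for Psap, -0.026 for Glb1 and 0.11 for Gltp with the block. When each library was left out, Psap ranged from -0.097 to 0.096, Glb1 from -0.020 to 0.050, Gm2a from -0.040 to 0.11 and Gltp from -0.13 to 0.056. The number of the 10 genes that fell was 1, and 3 with array weights, 0 with the block and 0 to 3 when each library was left out. None rose under any of these alternatives. Over all tested genes 865 rose and 1078 fell. The number that rose was 522 with no filter, 467 under TPM, 297 with the block, 2054 with array weights and 263 to 1420 when each library was left out. The number that fell was 1723 with array weights, 635 with the block and 603 to 1136 when each library was left out. Higher genes made up 44.5% of those called, and 23.4% under TPM, which moved the median log2 fold change of all genes from 0.04 to -0.06. The cause of these changes was not tested. The labels give both groups replicate numbers 2 and 3 without saying that they pair. Deviations from group means correlated over genes at 0.156 for number 2 and -0.303 for number 3. Between unlike numbers the correlations ran from -0.399 (vehicle replicate 4 with sulfatide replicate 1) to 0.538 (vehicle replicate 3 with sulfatide replicate 1). With the block, which rests on those 2 numbers, Npc2 was at -0.41 (adjusted p = 0.0727, limma), and Cd1d1 at -0.38 (0.331). Of the 14 called genes of the pathway lists outside the 10, 9 missed the threshold with the block (B2m, Ctsa, Gba2, St3gal5, B4galnt1, Degs1, Kdsr, Sgms1 and Mitf, adjusted p = 0.0627 to 0.187). Depth limits cannot be given because the table holds no counts.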
